A study of Mus musculus with 80 samples.

Results

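The mitochondrial genome was examined as a set of RXR ChIP-Seq peaks in mouse liver. All peak rows on chrM in the 40 peak lists were taken, which gave 391 of 618813 rows, and each interval and its summit was placed on the 37 mitochondrial genes of the GENCODE M21 annotation (55450 genes in all, GRCm38.p6, the assembly that mm10 names). The 10 genes described one by one were mt-Rnr1, mt-Rnr2, mt-Nd1, mt-Nd2, mt-Nd4, mt-Nd5, mt-Co1, mt-Co2, mt-Co3 and mt-Cytb. The mitochondrial genome was singled out because of its peak calls in these same libraries: the members were chosen by the presence of deposited peaks (chromosome and summit position), so the presence of calls and their split between genotypes are given as a description without a test. Summits lay in 8 of the 10 genes, and mt-Co2 and mt-Co3 had none.

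The study compared RXR binding in livers of male C57BL6/J mice aged 5 months after 12 weeks on diet. Wildtype (WT) mice and mice with liver-specific PPARγ knockout (KO) each received a control diet (Control), a control diet with pioglitazone (Pio), a high fat diet (HFD) or a high fat diet with pioglitazone (HFD-Pio), with livers of 5 mice in each of the 8 groups. Pioglitazone is an agonist of PPARγ, a nuclear receptor that binds DNA as a partner of RXR. The knockout combined loxP-flanked PPARγ alleles with a Cre transgene under the albumin promoter, which is active in hepatocytes, so that other cells of these livers keep the gene. The chromatin was precipitated with an antibody against the RXR family. The antibody field of the labels named it in the 20 WT and the 5 KO Control libraries and named none in the other 15 KO libraries, whose titles nevertheless call them RXR libraries, and they were treated as such here.

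The mitochondrial genome is a small circular DNA present in many copies per cell, and hepatocytes hold many mitochondria. In the mouse it carries 2 rRNA genes, 13 protein-coding genes for subunits of the respiratory chain and ATP synthase, and 22 tRNA genes, with a control region where transcription and replication start. RXR proteins act as heterodimer partners of other nuclear receptors and bind repeats of the hexamer AGGTCA in nuclear DNA. Copies of mitochondrial DNA are also found in nuclear chromosomes, where reads that match both places cannot be assigned.

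Several properties of the libraries differed between genotypes. The deposited lists keep peaks with a p below 0.001 in the 20 WT libraries and with a q below 0.05 in the 20 KO libraries, and a peak's fold enrichment is (pileup + 1) divided by (scaled input background + 1), where pileup is the number of extended ChIP tags over the summit. Kept ChIP tags, after removal of repeats at a position, numbered 627700 to 1057900 in KO and 2035200 to 4256700 in WT, and the ratio of kept ChIP to kept input tags was 0.107 to 0.289 in KO and 0.339 to 0.803 in WT. Of nuclear summits, 68.6 to 91.7% lay in exons in KO, 1.80 to 7.88% in WT without pioglitazone and 15.01 to 59.5% in WT with it, where the highest share was that of HFD-Pio 4. Exonic summits of KO libraries covered a median of 9 of 12 neural marker genes and 1 of 15 hepatocyte marker genes, beside a median of 25.4% of all 21938 nuclear protein-coding genes, the hepatocyte gene being Ttr, in 20 of 20 KO libraries. The hepatocyte median was 0 in each WT group, with a highest count of 8 in a WT library and 1 in a KO library. The neural median was 2 in WT Pio, 1 in WT HFD-Pio and 0 in WT Control and WT HFD. Of 8 intestinal marker genes the median was 0 in KO, 3 in WT Pio and WT HFD-Pio and 0 in WT Control and WT HFD libraries. The median share of all nuclear protein-coding genes called was 8.52% in WT Pio and 6.71% in WT HFD-Pio. It was 0.488% in WT Control and 0.119% in WT HFD. Whether the KO libraries hold anything other than RXR-precipitated liver chromatin was not tested. The KO peaks described here are therefore calls in libraries labelled as RXR ChIP and are not by themselves sites of RXR binding. Genotype, tag number and ChIP-to-input ratio cannot be told apart in this design. The calling cutoff of the deposited lists also follows genotype, and covered shares at a common cutoff are given below.

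The places where summits recurred are shown first. Summits of all libraries were chained when at most 50 bases apart, which gave 41 clusters, of which 6 held a summit of a single library. The 10 clusters present in most libraries follow as 30 bases of the plus strand of chrM, read from GRCm38.p6 around the median summit, which is the base in capitals. They are shown because they were called in most libraries, which is not an order by strength.
mt-Co1, chrM:5867-5896: aactccactatttgTctgatccgtacttat
mt-Nd1, chrM:2888-2917: acaaccatttgcagAcgccataaaattatt
mt-Cytb, chrM:15052-15081: taatacctttccttCatacctcaaagcaac
mt-Cytb, chrM:14287-14316: gtcttttcttagccAtacactacacatcag
mt-Nd4, chrM:11149-11178: gcctagcaaactccAactacgaacggatcc
mt-Nd1, chrM:3329-3358: aaaccgggccccctTcgacctgacagaagg
mt-Co1, chrM:6272-6301: taccggtgtcaaagTatttagctgacttgc
mt-Nd1, chrM:3527-3556: cataatagaagctcTactactatcatcaac
mt-Cytb, chrM:14648-14677: ctcagtagacaaagCcaccttgacccgatt
mt-Rnr2, chrM:1916-1945: aaacaagaaccccgCctgtttaccaaaaac

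The first of these clusters, in mt-Co1, spanned 22 bases (5869 to 5890) and had a summit in 20 of 20 KO livers, with a fold enrichment of 3.01 ± 0.83 (SD, n = 20). The next clusters of the list, in mt-Nd1 (2872 to 2932) and at the end of mt-Cytb (14983 to 15107), were each called in 19 KO livers. The last, in mt-Rnr2 (1905 to 1953), was called in 16 KO livers and 1 WT liver and was the only one of the 10 with a WT summit. The hexamer AGGTCA occurred 9 times on the mitochondrial genome when both strands were searched. It lay within 100 bases of the median summit in 1 of the 10 clusters, that of mt-Cytb at 14301, against 10.6% of all 16099 windows of 201 bases. The longer element of AGGTCA, any 1 base and AGGTCA again did not occur on either strand with up to 2 mismatches. A match, or its absence, describes the letters of these windows only.

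Mitochondrial peaks were a feature of the KO peak lists. Of the 391 rows, 385 came from KO livers, all 20 of which had at least 1, and 6 came from 2 of the 20 WT livers, both in the HFD-Pio group. The lists differed in length, with a median of 23676 summits per KO library (8176 to 32168) and 3634 per WT library (749 to 34822). Mitochondrial summits made up 0.00405 to 0.267% of a KO list and 0 to 0.0420% of a WT list. The share of the 16299 bases inside peaks was 18.9, 30.01, 50.4, 36.0 and 49.0% in the 5 KO Control livers. In KO Pio it was 45.9, 53.1, 8.49, 16.8 and 47.3%, in KO HFD 43.1, 43.6, 29.96, 37.2 and 43.2%, and in KO HFD-Pio 0.902, 19.03, 16.7, 42.5 and 47.7%. The KO HFD livers lay close together, whereas the KO Pio and KO HFD-Pio groups each held livers far below the rest. In WT, livers 4 and 5 of HFD-Pio had 2.85% and 0.319%, and the other 18 had 0%. With a common cutoff of −log10 q of at least 1.3 in all libraries, WT HFD-Pio 4 and 5 had 2.38% and 0%. No KO value changed, since the lowest −log10 q of a KO row was 1.303.

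**Figure D1:**
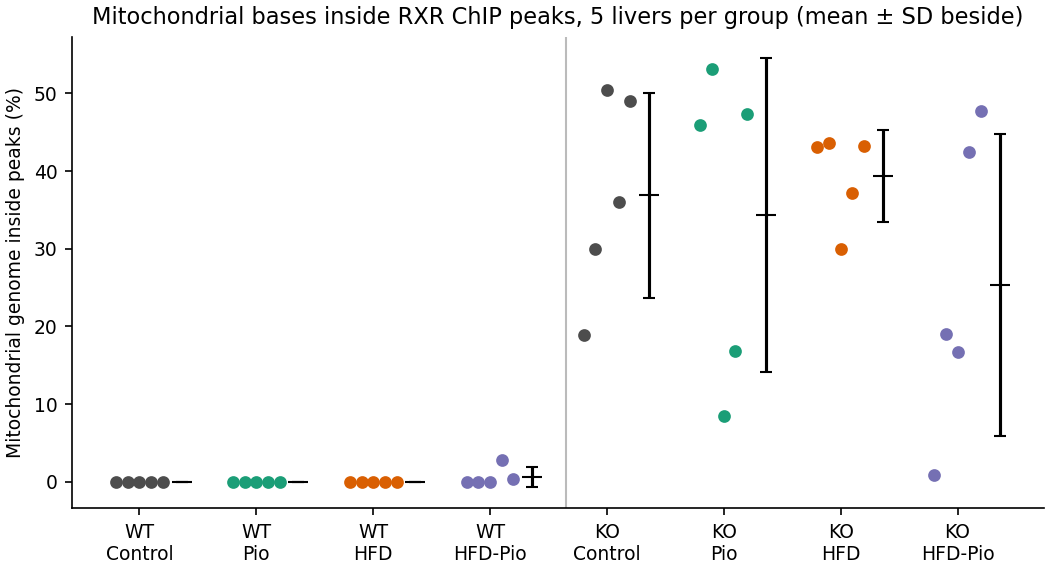
Share of the 16299 mitochondrial bases inside peaks (%, vertical axis) in each of the 5 livers of each group (points), with the group mean ± SD beside them. The KO livers range from 0.902 to 53.1%, and 2 WT livers, both HFD-Pio, lie above 0.

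The group means were 36.9% ± 13.2 in KO Control, 34.3% ± 20.2 in KO Pio, 39.4% ± 5.91 in KO HFD and 25.4% ± 19.4 in KO HFD-Pio (SD, n = 5 each). WT minus KO was -36.9 percentage points on the control diet, -34.3 with Pio and -39.4 with HFD, where no WT liver overlapped the KO group. In HFD-Pio the difference was -24.7, and the lowest KO liver (0.902%) lay below the highest WT liver (2.85%). These differences follow the genotype split for which the peaks were chosen and carry no test.

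Within a genotype, no effect of pioglitazone or of diet on the covered share exceeded the spread between livers. KO Pio differed from KO Control by -2.53 percentage points (exact two-sided permutation test of 5 against 5 livers, adjusted p = 0.981 over 12 contrasts). KO HFD-Pio minus KO HFD was -14.1 points, and the groups overlapped (exact p = 0.143, adjusted p = 0.343). It ranged from -19.6 to -7.94 points when 1 liver was left out, the ends being without KO HFD-Pio 5 and without KO HFD-Pio 1. The effect of the high fat diet in KO was 2.55 points without pioglitazone (exact permutation, adjusted p = 0.942) and -8.97 with it (adjusted p = 0.702). In WT, HFD-Pio exceeded HFD by 0.634 points (exact permutation, adjusted p = 0.702). None of 4 tests of whether an effect differed between genotypes or diets passed (exact permutation, adjusted p = 0.547 to 0.817). Since 2 of 20 WT livers had a mitochondrial peak, the tests that include WT could hardly show an effect there and do not bear on a difference between genotypes. Without the 4 KO libraries that had over 0.25 kept ChIP tags per input tag, which are described below, KO Pio minus KO Control turned to 11.9 points (exact permutation, adjusted p = 0.557) and KO HFD-Pio minus KO HFD was -3.02 points (adjusted p = 0.879).

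The 20 KO livers did not cover the genome evenly. Across all libraries 9004 bases (55.2%) were inside a peak at least once. Of the summits, 329 lay in protein-coding genes, 60 in rRNA genes, 2 in the control region and 0 in tRNA genes or between genes. Bases inside peaks in at least 15 KO libraries formed 6 runs, in mt-Rnr2 (1827 to 2069), mt-Nd1 (2793 to 3655), mt-Nd2 (4010 to 4277), mt-Co1 (5625 to 6441), mt-Nd4 (11005 to 11368) and mt-Cytb (14198 to 15206).

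The longest stretch without a peak in any library ran from 6481 to 10983, 4503 bases from the end of mt-Co1 to the start of mt-Nd4. Of its bases, 99.98% lay in a 50-base word that also occurs in a nuclear chromosome. The main nuclear copy is at chr1:24611535-24616184 on the minus strand, is annotated as a row of unprocessed pseudogenes and matches mitochondrial bases 6394 to 11042. Over the whole genome 7200 bases (44.2%) were shared in this way, and 23.4% of shared against 80.4% of unshared bases were ever inside a peak. The chromosome 1 copy had a peak in 1 library (KO Control 3, fold enrichment 3.75, pileup 3), and the copy at chr2:22587288-22590534, within Myo3a, had a peak in 3 KO libraries (fold enrichment 5.28 to 6.36, pileup 5 to 6). The other empty runs of over 300 bases lay at 1 to 382 and 776 to 1171 in the rRNA genes, where 0% of bases were shared, at 4925 to 5370 (88.1% shared), and at 15585 to 16299 in the control region (53.8% shared). Read placement at shared bases was not tested, since the peak lists hold no reads.

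**Figure D2:**
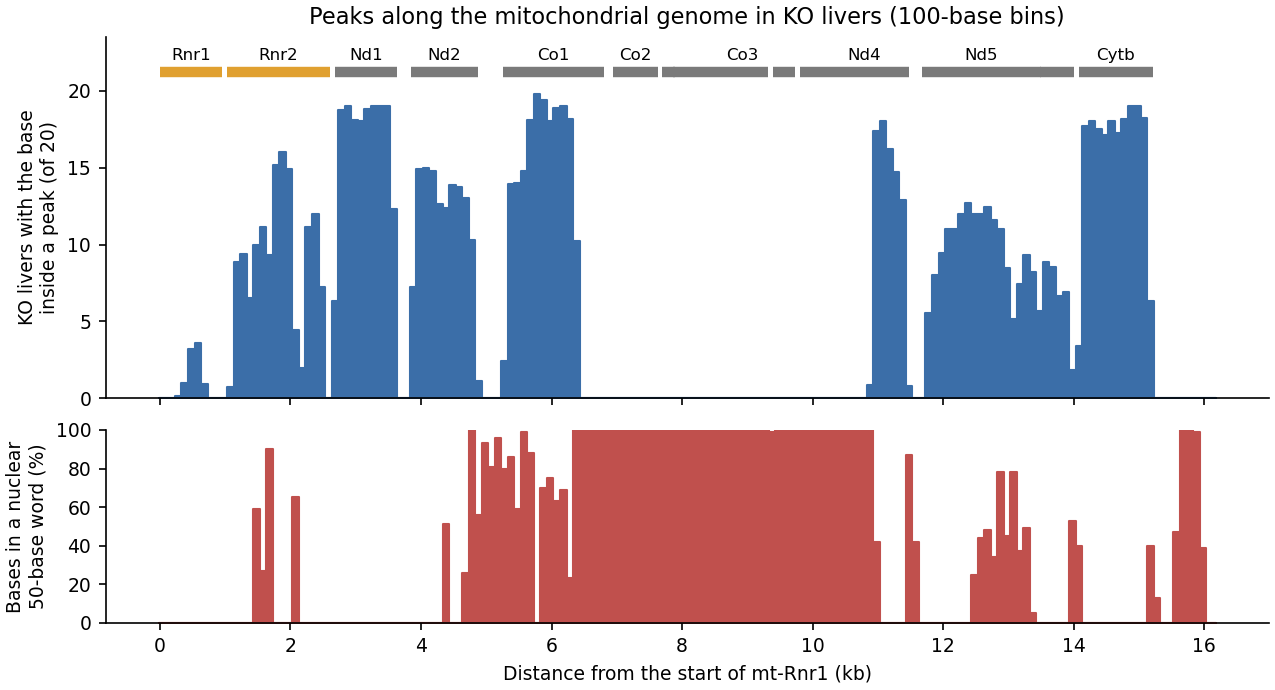
Upper panel, number of the 20 KO livers with the base inside a peak, averaged in 100-base bins, with rRNA genes (yellow) and protein-coding genes (grey) marked above. Lower panel, share of bases (%) in a 50-base word also found on a nuclear chromosome, against distance from the start of mt-Rnr1 (kb); the long stretch without a peak, from mt-Co1 to mt-Nd4, is almost wholly shared.

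The rRNA genes encode the RNAs of the mitochondrial ribosome. mt-Rnr1 (70 to 1024, plus strand), the RNA of the small subunit, had 4 summits, in 4 KO livers, 2 of them Control, 1 Pio, 0 HFD and 1 HFD-Pio. Its covered share was 28.5% and 20.5% in 2 KO Control livers, 29.1% in a KO Pio liver and 15.5% in a KO HFD-Pio liver, and 0% in the other 16 (4.68% ± 9.95, SD, n = 20). This was the lowest mean of any member with a summit, although none of its bases was shared with a nuclear chromosome.

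mt-Rnr2 (1094 to 2675, plus strand), the RNA of the large subunit, had 53 summits in KO livers and 3 in WT HFD-Pio 4. It was called in 4, 3, 5 and 4 livers of KO Control, Pio, HFD and HFD-Pio. The covered share was 0, 25.9, 78.4, 54.3 and 74.6% in KO Control and 65.1, 90.6, 0, 0 and 76.0% in KO Pio. In KO HFD it was 69.3, 43.9, 20.7, 48.4 and 57.5%, and in KO HFD-Pio 0, 15.4, 13.3, 69.8 and 74.0%. Thus 4 KO livers had no peak over mt-Rnr2 while others had most of it covered, and the mean was 43.9% ± 31.3 (SD, n = 20) with a highest fold enrichment of 3.31.

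The Nd genes encode subunits of complex I, the NADH dehydrogenase that takes electrons into the respiratory chain. mt-Nd1 (2751 to 3707, plus strand) was the most fully covered member, at 87.7% ± 22.3 (SD, n = 20) with 60 summits, and none of its bases was shared. In KO Control its covered share was 91.4, 92.6, 96.8, 96.0 and 97.3%, and in KO HFD 95.1, 97.2, 91.3, 96.1 and 98.6%. In KO Pio it was 96.3, 97.4, 61.3, 86.9 and 96.6%, and in KO HFD-Pio 0, 87.3, 83.1, 96.8 and 95.5%. The gene was therefore covered nearly from end to end in most livers, with KO HFD-Pio 1 as the liver without a call and KO Pio 3 as the lowest called.

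mt-Nd2 (3914 to 4951, plus strand) had 43 summits in 5, 3, 5 and 2 livers of KO Control, Pio, HFD and HFD-Pio, and a covered share of 62.1% ± 40.04 (SD, n = 20). It was 0% in 2 KO Pio and 3 KO HFD-Pio livers and reached 95.7% in KO Pio 2. mt-Nd5 (11742 to 13565, plus strand), the longest member, had the most summits, 65, in 4, 3, 5 and 2 livers of the same groups. Its covered share was 46.8% ± 39.4 (SD, n = 20), with 0% in KO Control 1 and in the 5 livers that also lacked a peak over mt-Nd2. mt-Nd4 (10167 to 11544, plus strand) had 28 summits in KO livers, in 5, 4, 5 and 4 livers, and 1 in WT HFD-Pio 4. Of its bases 65.8% were shared with a nuclear chromosome, and it was covered at 29.3% ± 12.6 over all bases but at 77.3% ± 33.3 over unshared bases (SD, n = 20). Its summits fell in its second part, downstream of the long empty stretch.

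The Co genes encode the catalytic core of cytochrome c oxidase, complex IV, which passes electrons to oxygen. mt-Co1 (5328 to 6872, plus strand) was the only gene called in all 20 KO livers, held the strongest summit in 11 of them and had the highest fold enrichment of the genome, 4.40. Its highest fold enrichment per liver was 2.61, 2.83, 3.81, 3.09 and 3.59 in KO Control and 3.17, 3.66, 1.68, 1.96 and 4.19 in KO Pio. In KO HFD it was 3.53, 4.40, 2.92, 2.93 and 3.38, and in KO HFD-Pio 1.61, 2.57, 2.001, 3.74 and 3.60. The 5 lowest values came from KO Pio 3 and 4 and KO HFD-Pio 1, 2 and 3, and the values of treated and untreated livers overlapped. Of its bases 74.9% were shared, and its covered share was 60.4% ± 17.2 over all bases and 89.2% ± 17.95 over unshared bases (SD, n = 20). mt-Co2 (7013 to 7696) and mt-Co3 (8607 to 9390) had no summit and no covered base in any of the 40 libraries, and 100% of their bases were shared with nuclear chromosomes.

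mt-Cytb (14145 to 15288, plus strand), cytochrome b of complex III, which hands electrons from ubiquinol to cytochrome c, had 59 summits and a covered share of 82.9% ± 24.9 (SD, n = 20), with 2.45% of its bases shared. Its highest fold enrichment was 2.48, 3.03, 3.77, 3.04 and 3.73 in KO Control and 2.77, 4.17, 1.63, 1.89 and 4.20 in KO Pio. It was 3.65, 4.01, 2.70, 2.95 and 3.07 in KO HFD, and in KO HFD-Pio the first liver had no call and the others had 2.30, 2.11, 3.52 and 3.41. As at mt-Co1, the low livers were KO Pio 3 and 4 and KO HFD-Pio 1, 2 and 3. mt-Cytb held the strongest summit of 5 KO livers and mt-Nd1 that of 4.

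Of the other 5 protein-coding genes, mt-Nd6, a complex I gene on the minus strand (13552 to 14070), had 16 summits in 2, 3, 4 and 1 livers of KO Control, Pio, HFD and HFD-Pio. mt-Nd3, mt-Nd4l, mt-Atp6 and mt-Atp8, whose products belong to complex I and to ATP synthase, had 0 summits, and 99.7% of the bases of mt-Nd3 and 100% of those of the others were shared. The 22 tRNA genes had 0.157% ± 0.416 of their bases inside peaks (SD, n = 20), in 5 KO livers. The control region held the only summits outside genes, at 15528 and 15486, both from WT HFD-Pio livers, and no KO summit.

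**Figure D3:**
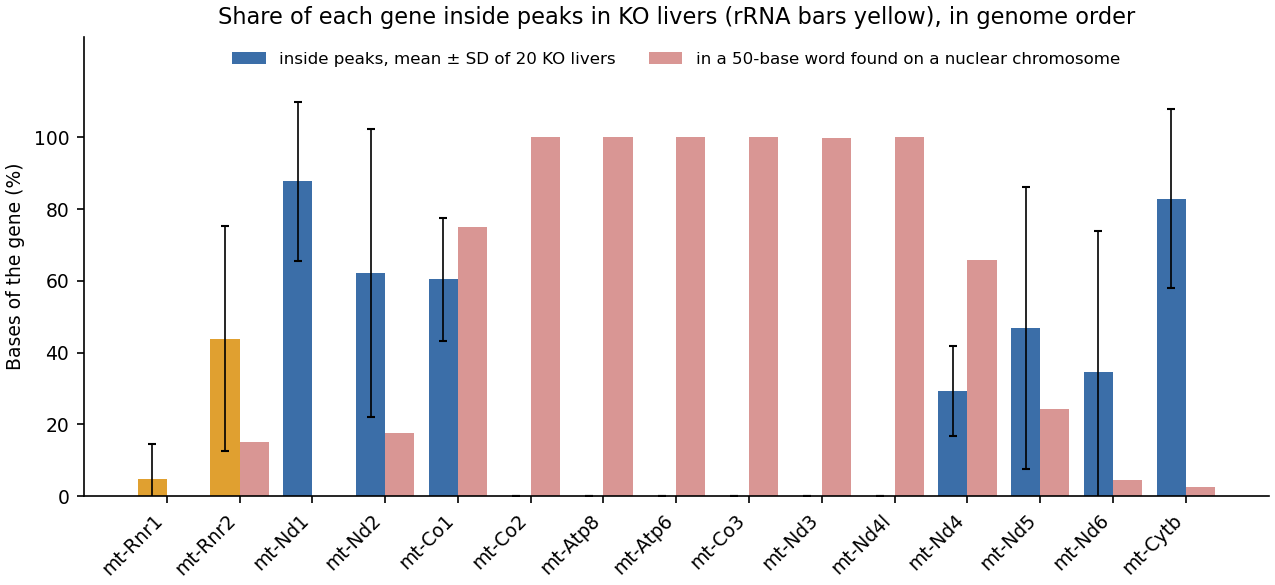
Share of the bases of each rRNA gene (yellow) and protein-coding gene (blue) inside peaks, mean ± SD of 20 KO livers, beside the share in a 50-base word found on a nuclear chromosome (pale red), both in %. mt-Nd1 and mt-Cytb stand highest at 87.7% and 82.9%, mt-Rnr1 stands at 4.68%, and mt-Co2 and mt-Co3 are at 0 with all bases shared.

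Protein-coding genes were more fully covered than rRNA genes in the KO livers. Over all 13 coding genes 42.3% ± 17.7 of bases were inside peaks, against 29.1% ± 21.9 over both rRNA genes (SD, n = 20), and coding was higher in 18 of 20 livers. The mean difference within a liver, rRNA minus coding, was -13.2 percentage points (SD 10.1, exact two-sided sign-flip test over 20 livers, adjusted p = 6.87e-05). This test covers the spread between livers and not that between genes, of which only 2 are rRNA genes. Over all bases mt-Rnr2 stood at 43.9%, above the coding share, and mt-Rnr1 at 4.68%, so the gap lay in mt-Rnr1. Of coding bases 50.2% and of rRNA bases 9.50% were shared with nuclear chromosomes. Over unshared bases coding stood at 68.4% ± 27.9 and rRNA at 27.7% ± 20.6, a difference of -40.7 points in the same direction in 20 of 20 livers (exact sign-flip, adjusted p = 3.81e-06, the smallest these flips can give). There mt-Rnr2 stood at 44.0%, below the coding share but above the coding gene mt-Nd6 at 35.9%. Summits per kb differed less, at 1.12 in rRNA and 1.45 in coding genes, with coding higher in 16 of 20 livers (exact sign-flip, adjusted p = 0.0151). In WT 1 of 20 livers had rRNA or coding bases inside peaks, with rRNA higher, and the difference was 0.450 points (exact sign-flip, adjusted p = 1.0).

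**Figure D4:**
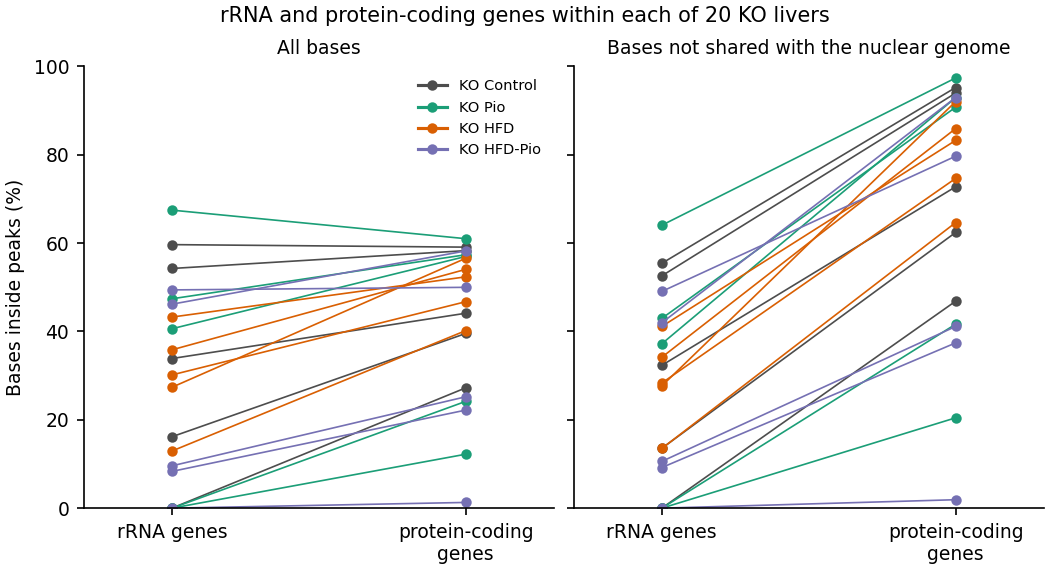
Bases inside peaks (%) in the rRNA genes and in the protein-coding genes of each of the 20 KO livers, joined by a line, over all bases (left) and over bases not shared with the nuclear genome (right). The line rises in 18 of 20 livers on the left and in 20 of 20 on the right.

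No mitochondrial gene met the rule for gain or loss with pioglitazone, which asks for at least 3 of 5 livers called against 0 of 5. In KO Pio against KO Control 0 mitochondrial genes were gained or lost, where 1.98% of 11873 genes tested were gained and 0.278% lost. The mitochondrial genes with a summit there were already called in 2 to 5 KO Control livers, so the rule could not count them as gained. In KO HFD-Pio against KO HFD the count was likewise 0, against 0.889% gained and 0.537% lost of 11921. Here too a gain was open only to mt-Rnr1 among the genes with a summit, since the others were called in 4 or 5 KO HFD livers. In WT it was 0 with either diet, against 37.9% gained and 0% lost in Pio and 27.6% gained and 0% lost in HFD-Pio. A gene was tested only if it had a summit in at least 1 liver of the contrast. In WT Pio against WT Control no mitochondrial gene had one. In WT HFD-Pio against WT HFD only mt-Rnr2 and mt-Nd4 did, each in 1 liver. By Fisher's exact test on livers called, 0% of the genes tested passed an adjusted p of 0.05 in each of the 4 contrasts. With 5 against 5 livers this test reached no p below 0.00794. For a gene at that floor, adjustment over all genes gave 0.125 in WT Pio, 0.188 in WT HFD-Pio and more in the KO contrasts. The adjusted test could therefore not show a difference at any mitochondrial gene. Before adjustment, 1984, 710, 123 and 51 genes had a Fisher p under 0.05 in WT Pio, WT HFD-Pio, KO Pio and KO HFD-Pio.

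Where a gene was called in all 10 livers, its fold enrichment could be compared directly on the log2 scale, centred on each library's median. KO Pio minus KO Control was -0.19 (SE 0.24) at mt-Nd1, -0.30 (SE 0.25) at mt-Co1 and -0.33 (SE 0.26) at mt-Cytb, each with a limma adjusted p of 0.998. KO HFD-Pio minus KO HFD was -0.32 (SE 0.21) at mt-Co1 (limma, adjusted p = 0.978). Over all genes in the fit 0.0468% of 2139 genes passed in the first contrast and 0% of 2337 in the second, with 112 and 104 at an unadjusted p under 0.05. The 4 mitochondrial differences were smaller than 2 SE.

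The mitochondrial summits combined high pileup with low fold enrichment. In KO their pileup was 42 to 164 (median 98), and the median mitochondrial pileup of a library exceeded that of 99.9 to 99.99% of its nuclear summits. The median mitochondrial fold enrichment was below the nuclear median in 20 of 20 KO libraries. Significance ranged from a −log10 q of 1.303 to 44.1 in KO and 0.760 to 8.37 in WT.

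Because 1 tag was kept per position and strand, pileup cannot exceed 2 times the fragment length. The KO summits stood at 16.6 to 56.0% of that limit (median 32.4), and the input background before scaling, worked back from pileup and fold enrichment, at 53.2 to 100% of it (median 93.2). Of the 391 rows, 324 had an input background of at least 80% of the limit and 158 of at least 95%. At nuclear summits of KO libraries the medians were 0.0581 to 0.3% for the input and 0.893 to 1.68% for the pileup. In the 6 WT rows pileup was 50 to 92.6% and input 84.1 to 95.7% of the limit. The fragment lengths of HFD-Pio 4 and 5 were 46 and 47, shorter than their 49-base tags. Their limits were therefore 92 and 94, against 238 to 336 in KO, so the percentages are not on the same scale. The largest fold enrichment that a library can reach where ChIP and input are both full is set by its ChIP-to-input ratio and was 3.43 to 9.05 in KO and 1.24 to 2.89 in WT. The strongest WT summits, 2.55 in HFD-Pio 4 and 1.64 in HFD-Pio 5, lay near the values of their own libraries, 2.89 and 1.69. What part this limit has in the difference between genotypes was not tested.

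**Figure D5:**
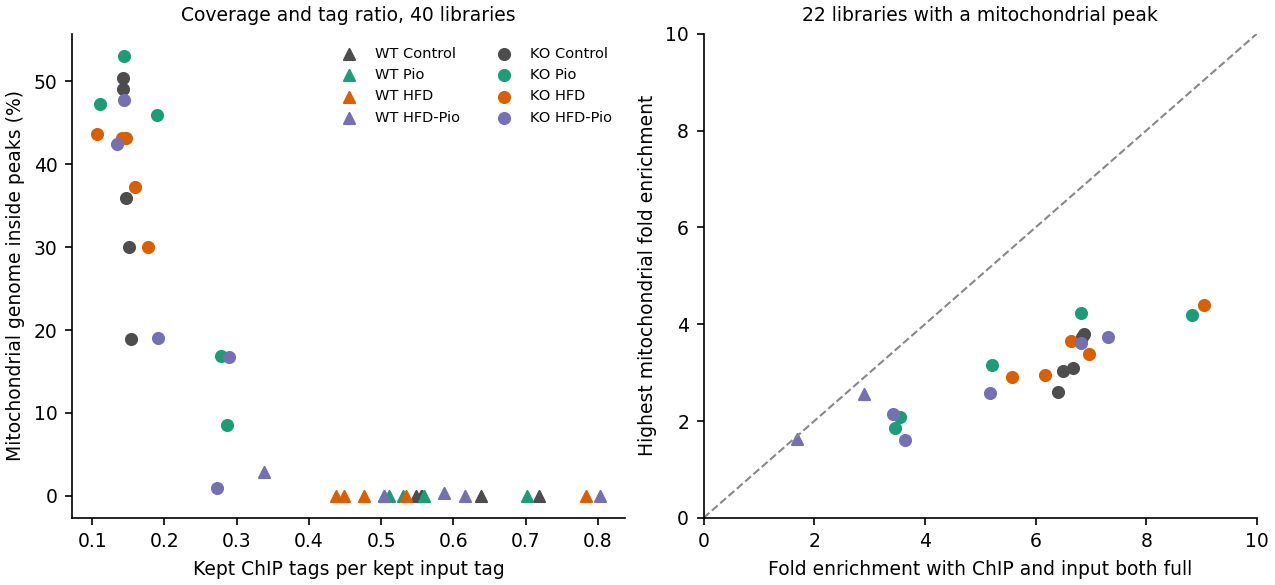
Left, share of the mitochondrial genome inside peaks (%) against kept ChIP tags per kept input tag in the 40 libraries. Right, highest mitochondrial fold enrichment against the fold enrichment reached with ChIP and input both full in the 22 libraries with a mitochondrial peak, with a dashed line where both are equal; the 2 WT libraries lie close to the line and the 20 KO libraries below it.

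Within KO the covered share moved with the same ratio. The 4 libraries with over 0.25 ChIP tags per input tag (KO Pio 3 and 4, KO HFD-Pio 1 and 3) covered 0.902 to 16.8% of the genome with a highest fold enrichment of 1.61 to 2.14, whereas the other 16 covered 18.9 to 53.1% with 2.57 to 4.40. Kept input tags numbered 2171700 to 3333100 in the 4 and 3519300 to 7190700 in the other 16. Kept ChIP tags overlapped, at 627700 to 929080 and 651090 to 1057900. Over the 10 KO livers with pioglitazone the correlation of covered share with the ratio was r = -0.886 (permutation, adjusted p = 0.00684) and rho = -0.770 (adjusted p = 0.0121), and r was -0.865 without the 2 livers farthest from the median ratio. Over the 10 KO livers without pioglitazone r was -0.488 (permutation p = 0.146) and rho -0.782 (adjusted p = 0.0121), with r = -0.651 without 2 livers. This measure was added after the values had been seen.

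In KO livers with pioglitazone the covered share was also higher where a larger percentage of the nuclear summits lay in exons. Over KO livers with pioglitazone r was 0.777 (permutation, adjusted p = 0.00304) and rho 0.758 (adjusted p = 0.0302), with r = 0.774 without the 2 livers farthest from the median. Over KO livers without it r was 0.576 (permutation p = 0.0811) and rho 0.564, and r fell to 0.285 without 2 livers, so that the relation there rested on those livers. In WT 0 livers without and 2 livers with pioglitazone had mitochondrial peaks, and no correlation was computed.

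The nuclear partners of the mitochondrial genes were called in the same KO libraries. Of 37 nuclear genes for complex I a median of 23 had an exonic summit per KO library (range 6 to 30), which is 62.2% of the list where 25.4% of all nuclear protein-coding genes were called (range 11.9 to 30.4%). In WT the median was 1 (range 0 to 20), or 2.7% of the list against 0.85% of all. The medians in KO were 4 of 4 for complex II, 7 of 9 for complex III, 8.5 of 10 for complex IV and 11 of 16 for ATP synthase. In WT libraries by group the complex I median was 0 in Control and HFD, 17 in Pio and 10 in HFD-Pio, where 8.52% and 6.71% of all nuclear protein-coding genes were called. No test of these lists against other genes was made. Atp5b and Atp5a1, the β and α subunits of ATP synthase, and Cox4i1, a subunit of complex IV, were called in 20 of 20 KO libraries with median fold enrichments of 18.2, 14.97 and 10.6. The highest on the mitochondrial genome was 4.40. The high input background there restricts the fold enrichment that can be reached, so nuclear and mitochondrial values cannot be compared directly. Of 20 nuclear genes for mitochondrial transcription, translation and RNA handling a median of 4 (20%, range 0 to 8) were called per KO library, led by Slirp in 16 and Lrpprc in 15. This was near the 25.4% of all nuclear protein-coding genes. Exons of Pparg itself held a summit in 0 KO and 7 WT libraries.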

How the data were processed

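RXR ChIP-Seq was measured in 40 livers, each with an input sample. Reads were aligned to mm10 with Novoalign and peaks were called by the authors with MACS2 2.1.1.20160309 for each ChIP against its own input, with summits split and 1 tag kept per position. The deposited peak lists give pileup as a signal of tags, fold enrichment as a ratio to the scaled input, −log10 p and −log10 q. A score column in the second deposited list of each library was used only to check that both lists hold the same peaks, which they did in 40 of 40. No read counts were used here, so the test of the study on reads was not repeated.

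Each summit and interval was placed on the GENCODE M21 genes of GRCm38.p6 with Python 3.11.15 and pandas 2.3.3. A base was called shared when a 50-base word covering it occurred in a nuclear chromosome. Group means were compared by exact permutation (scipy 1.17.1), adjusted by Benjamini-Hochberg over 12 contrasts. The WT against KO contrasts were in that family but their p-values are not given, because the mitochondrial genome was picked on those calls. rRNA and coding genes were compared by exact sign flips within livers. Fisher's exact test and limma 3.58.1 were run on all genes and adjusted over all of them, and correlations used 100000 resamples. These scripts were tested on simulated data. The members, marker lists and tests were chosen with earlier results of these data known. All members were named, with the 10 clusters called in most libraries and at most 3 genes per nuclear list. Livers with the same replicate number were not treated as pairs, since 0 of 5 same-numbered pairs correlated over 0.1 in the Pio and diet contrasts. Alternatives were common and stricter q cutoffs, summit counts, unshared bases, a replicate block and leaving out livers.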

Additional observations from a re-analysis of the deposited data

Results flagged for a closer look

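A single liver stood apart from the other 4 of its group in 13 of 52 groups of 5 by Dixon's ratio of gap to range. The usual chance rate of about 1 in 20 does not hold for this count, because in 6 of the 13 the other livers were all at 0, so that any liver with a peak stands apart by construction, and because the measures overlap, with WT HFD-Pio 4 counted 5 times. In WT HFD-Pio, liver 4 stood high in the covered share of the whole mitochondrial genome (2.85%), of rRNA bases (9.58%), of coding bases (0.582%), of mt-Rnr2 (15.4%) and of mt-Nd4 (4.79%). It had the lowest ChIP-to-input ratio of the WT libraries, 0.339. At mt-Rnr1, liver 2 of KO Pio (29.1%) and liver 4 of KO HFD-Pio (15.5%) were the only ones of their groups with a peak. Liver 3 of KO Pio stood low at mt-Nd1 (61.3%) and mt-Cytb (27.5%), and liver 1 of KO HFD-Pio had 0% at both genes. These were 2 of the 4 KO libraries with over 0.25 kept ChIP tags per input tag. Liver 1 of KO Control stood low at mt-Co1 (46.3%) and mt-Nd4 (17.5%). The part of the tag ratio in these values was not tested.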

How the results depend on the processing

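The peak lists hold no reads, so depth limits each liver's coverage to a called or uncalled state, and WT and KO lists rest on different cutoffs and tag numbers. The replicate block leaves the WT minus KO differences as they are by arithmetic (-36.9, -34.3, -39.4 and -24.7 percentage points), and they are given without a test, as in the report. The HFD-Pio genotype difference was -23.1 points with peaks of −log10 q of at least 5 and -13.6 as summits per library. Without the 4 KO libraries over 0.25 ChIP tags per input tag, an alternative chosen after seeing the data, the genotype differences were -48.8 with Pio and -35.8 with HFD-Pio, and KO Pio minus KO Control turned to 11.9 points over the genome, 12.8 over coding and 19.03 over rRNA bases, with rRNA bases of KO HFD-Pio minus KO HFD at 5.14. Over rRNA bases KO Pio minus KO Control turned to 6.57 points at the stricter cutoff, and KO HFD minus KO Control to 0.2 summits per library; the cause was not tested.

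When 1 liver was left out at a time, KO HFD minus KO Control ranged from -1.93 to 5.93 (negative without KO Control 1). KO Pio minus KO Control ranged from -7.22 to 3.93 and was positive without KO Control 3, KO Control 5, KO Pio 3 or KO Pio 4. The genotype difference ranged from -40.8 to -29.6 with Pio and from -30.8 to -19.1 with HFD-Pio. KO HFD-Pio minus KO Pio ranged from -15.4 to -2.85. The count of mitochondrial genes lost in KO HFD-Pio ranged from 0 to 1, the 1 without KO HFD-Pio 5. Over rRNA bases the ranges were -11.1 to 3.84 for KO HFD minus KO Control, -16.2 to 0.694 for KO HFD-Pio minus KO Pio and -10.8 to 6.08 for KO Pio minus KO Control, and over coding bases -0.280 to 7.68 and -7.97 to 4.22 for the first and the last. The difference between rRNA and coding genes in KO kept its direction and its call under each alternative run. The replicate block changed no call of a pioglitazone or diet contrast. For the covered share it could not, since sign flips of 5 paired differences give no p below 0.0625.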
